A study of Danio rerio with 19 samples.

Results

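The Eph receptors and ephrins are a family of cell-surface receptors and ligands, described here across sorted cells of the zebrafish embryo. Its members were taken as the rows of the expression table whose gene name begins with eph or efn, then a or b, then a digit, which gave 26 of 31953 genes. They are 8 EphA receptors, 7 EphB receptors, 6 ephrin-A ligands and 5 ephrin-B ligands. A further 5 rows carry family names in another spelling, such as EPHA2 (2 of 2), and fall outside this rule, so sums and shares over the 26 genes leave them out. The 26 members were chosen by name and not by their values.

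The study sequenced RNA from 19 samples of fluorescence-sorted cells of zebrafish embryos, 1 library each, in an account of regional gene expression in the developing face. The pharyngeal arches, the source of most libraries, are embryonic segments in which cranial neural crest cells form the skeleton of the jaw and gills. The all-arch group held 3 libraries of wild-type (WT) cells positive for both fli1a:GFP and sox10:DsRed at 36 hpf (hours post fertilization), the fli1a-only group 3 WT libraries with GFP alone at 36 hpf, and the sox10-only group 3 WT libraries with DsRed alone. The sample labels give 20, 28 and 36 hpf for the sox10-only libraries 1, 2 and 3, while the series design describes them as replicates collected together with the arch cells. The hand2-sorted group (2 libraries) and the dlx5a-sorted group (1 library) were WT at 36 hpf and are named for hand2 or dlx5a together with sox10 in their titles. Arch cells of all domains, double positive and at 36 hpf, also came from genotyped edn1-/- embryos (2 libraries), from 1 jag1b-/- and 1 jag1b+/+ library, both genotyped, and from heat-shocked embryos carrying hsp70I:Gal4 alone, hsp70I:Gal4 with UAS:Edn1, or hsp70I:Gal4 with UAS:Nicd (1 library each). NICD is the Notch intracellular domain, the active form of the Notch receptor. The heat-shock promoter is not restricted to arch cells, and the fli1a and sox10 reporters mark other cells besides arch crest, such as vessels for fli1a and the ear, glia and pigment cells for sox10. The labels used here name no mutant allele or strain, and nothing in them ties a replicate to a clutch of its own, so each p-value covers the spread among these libraries alone, and that spread may be technical.

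Ephrins are ligands held at the cell surface, ephrin-A by a lipid anchor and ephrin-B by a transmembrane segment. Eph receptors are receptor tyrosine kinases that bind ephrins on neighbouring cells, in most cases A with A and B with B, and binding can signal into both cells. The system is known for repulsion and boundary formation between cell groups. In neural crest it is known for keeping migrating streams apart, and in vessels ephrin-B2 and EphB4 are known for separating arteries from veins.

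Expression is given as TPM (transcripts per 1000000), which accounts for gene length, so levels can be compared between genes. TPM keeps no sequencing depth, so the depth behind each value is unknown and counting error cannot be given. Between 10883 and 15212 genes per library reached 1 TPM. The arch crest markers (7 genes) summed to 3250.0 to 5137 TPM in all-arch, 706 to 973 in fli1a-only and 492 to 562 in sox10-only libraries. In the fli1a-only libraries globin genes, the mark of red blood cells, took 22.7% to 61.5% of their TPM, the most in library 2, and at most 1.37% in any other library. A high share of 1 gene class lowers the TPM of all other genes, and fli1a-only library 2 held the lowest level of its group for 24 of the 26 members. In these bulk libraries fewer cells of a type and less RNA per cell cannot be told apart. The genes behind the edn1, jag1b and heat-shock labels are checked beside the results for those libraries.

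Within the 26 members, a few genes of modest level led in every library. The 26 members together summed to 45.7 to 224 TPM, with 137 to 224 in all-arch, 45.7 to 151 in fli1a-only and 51.9 to 105 in sox10-only libraries. The ephrin-B2 gene efnb2a was the highest of the 26 members in 16 of 19 libraries. The highest in the other 3 was efna1b, in fli1a-only library 3, hand2-sorted library 1 and edn1-/- library 1. The row EPHA2 (2 of 2), outside the 26, exceeded the highest member in some libraries. It stood at 39.1 and 68.2 TPM in the hand2-sorted libraries, 33.6 in edn1-/- library 1 and 53.5 in the jag1b-/- library. The highest member there held 16.9, 32.1, 23.3 and 39.6 TPM, in this order. The 5 highest members of a library held 62.0 to 73.6% of the summed TPM of the 26 members. At the other end, 6 members stayed under 1 TPM in all 19 libraries (efna3a, epha6, epha8, ephb1, ephb2a and ephb6), and 8 members reached at least 1 TPM in all 19 (efna1a, efna1b, efnb2a, efnb2b, epha4a, ephb3a, ephb4a and ephb4b). Over these 26 genes the ratio of summed ligand to summed receptor TPM ran from 1.11 to 2.81, lowest in sox10-only library 2 and highest in the dlx5a-sorted library. With the 5 rows of other spelling added, among them the receptor row EPHA2 (2 of 2) at 3.95 to 68.2 TPM, the ratio ran from 0.617 in hand2-sorted library 2 to 1.53 in the dlx5a-sorted library. It lay under 1 in 10 of 19 libraries, with 0.930, 0.974 and 0.955 in the all-arch libraries, so which side is larger turns on these rows.

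**Figure D1:**
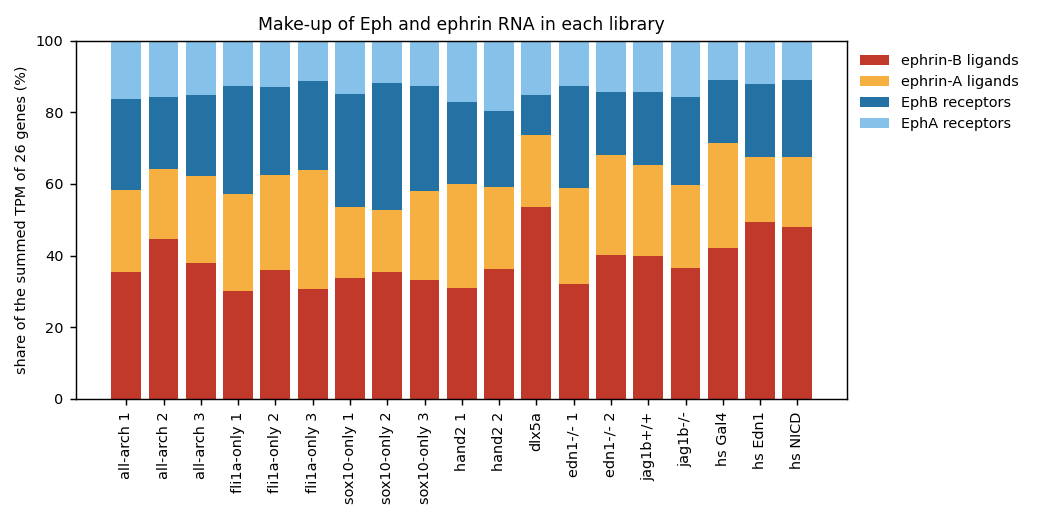
Share of the summed TPM of the 26 Eph and ephrin genes held by each of the 4 classes (y axis, %), with 1 bar for each of 19 libraries. The ephrin-B share ran from 30.0% to 53.7% and was highest in the dlx5a-sorted library, where the EphB share was lowest at 11.2%.

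The shares of the 4 classes varied between libraries, and they cover the 26 genes alone. The EphA members together stood at 22.4, 28.9 and 34.1 TPM in all-arch libraries. The EphA receptor row EPHA2 (2 of 2), left out by its spelling, stood at 26.3, 47.5 and 49.9 TPM there. Both the order of the classes and the differences in share between sorts can therefore change with the rows of other spelling. Ephrin-B ligands held 35.5 to 44.7% of the family sum in all-arch libraries, 30.0 to 35.9% in fli1a-only and 33.2 to 35.5% in sox10-only libraries. EphB receptors held 20.1 to 25.4%, 24.4 to 30.3% and 29.4 to 35.5% in the same order, so the sox10-only libraries lay above all 3 all-arch libraries. EphA receptors held 15.2 to 16.4% in all-arch and 11.3 to 13.0% in fli1a-only libraries, which did not overlap. Ephrin-A ligands ranged from 17.1 to 33.2% over all libraries. Shares within one library move against each other and were not tested.

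Values in every library are given for the 11 members with a group mean of at least 10 TPM in some group or past the test in some comparison. Among the ephrin-B ligands, efnb2a (ENSDARG00000020164) encodes ephrin-B2, which is also a marker of arterial vessels. The gene efnb2a stood at 33.1, 60.4 and 61.9 TPM in all-arch libraries, while fli1a-only libraries held 18.7, 12.1 and 30.3 TPM and sox10-only libraries 13.1, 17.0 and 27.0 TPM. It stood at 16.7 and 32.1 TPM in the hand2-sorted libraries, 40.6 in the dlx5a-sorted library and 23.0 and 58.3 in the edn1-/- libraries. In the libraries without replicates it stood at 48.8 TPM with jag1b+/+, 39.6 with jag1b-/-, 52.2 with Gal4 alone, 66.6 with Edn1 and 43.8 with NICD. All 3 all-arch libraries lay above all fli1a-only and sox10-only libraries, and both hand2-sorted libraries and edn1-/- library 1 lay under all 3 all-arch libraries. Its paralogue efnb2b (ENSDARG00000074050) was lower throughout, at a ratio of efnb2a to efnb2b between 1.16 and 7.28. The gene efnb2b stood at 9.95, 13.5 and 14 TPM in all-arch libraries, while fli1a-only libraries held 6.08, 2.67 and 9.66 TPM and sox10-only libraries 2.67, 2.88 and 3.70 TPM. It reached 9.08 and 8.52 TPM in the hand2-sorted libraries, 12.6 in the dlx5a-sorted library and 19.8 and 14.7 in the edn1-/- libraries. Unlike efnb2a, it was higher in both edn1-/- libraries than in any all-arch library, a difference that did not pass the test. Without replicates it stood at 10.4 TPM with jag1b+/+, 13.0 with jag1b-/-, 8.59 with Gal4 alone, 11.4 with Edn1 and 12.5 with NICD.

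Among the ephrin-A ligands, efna1b (ENSDARG00000018787) and efna1a (ENSDARG00000030326) are the paralogues of ephrin-A1. The gene efna1b stood at 18.9, 19.0 and 33.7 TPM in all-arch libraries, while fli1a-only libraries held 16.4, 7.22 and 34.6 TPM and sox10-only libraries 3.64, 4.08 and 14.7 TPM. Its values in the arch groups were 16.9 and 15.4 TPM in the hand2-sorted libraries, 8.68 in the dlx5a-sorted library and 23.3 and 32.0 in the edn1-/- libraries. Without replicates it stood at 26.1 TPM with jag1b+/+, 22.2 with jag1b-/-, 32.2 with Gal4 alone, 16.5 with Edn1 and 10.7 with NICD. The fli1a-only libraries overlapped the all-arch libraries widely for this gene, while the sox10-only libraries lay under every all-arch library. The gene efna1a stood at 7.83, 9.04 and 11.8 TPM in all-arch libraries, while fli1a-only libraries held 7.05, 3.45 and 12.2 TPM and sox10-only libraries 4.36, 3.61 and 6.46 TPM. Its values in the arch groups were 10.3 and 10.9 TPM in the hand2-sorted libraries, 10.3 in the dlx5a-sorted library and 12.5 and 13.9 in the edn1-/- libraries. It stood at 9.61 TPM with jag1b+/+, 11.7 with jag1b-/-, 5.88 with Gal4 alone, 7.66 with Edn1 and 3.08 with NICD. Both edn1-/- libraries exceeded the all-arch libraries, and the NICD library held the lowest value of all 19.

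Among the 8 EphA receptors of the 26 members, epha4a had the highest mean in all-arch cells, followed by epha4b. EphA4 is known for binding both ephrin-A and ephrin-B ligands. The gene epha4a (ENSDARG00000054454) stood at 10.9, 12.5 and 17.6 TPM in all-arch libraries, while fli1a-only libraries held 4.51, 2.13 and 6.45 TPM and sox10-only libraries 1.91, 2.57 and 3.70 TPM. It stood at 7.18 and 11.4 TPM in the hand2-sorted libraries, 6.96 in the dlx5a-sorted library and 8.77 and 13.4 in the edn1-/- libraries. Without replicates it stood at 10.1 TPM with jag1b+/+, 9.83 with jag1b-/-, 4.94 with Gal4 alone, 5.49 with Edn1 and 4.37 with NICD. The 3 all-arch libraries lay above every fli1a-only and sox10-only library. The gene epha4b (ENSDARG00000011600) stood at 3.39, 3.90 and 5.03 TPM in all-arch libraries, while fli1a-only libraries held 1.14, 0.451 and 1.35 TPM and sox10-only libraries 0.564, 0.594 and 0.775 TPM. Its values were 3.15 and 6.01 TPM in the hand2-sorted libraries, 3.36 in the dlx5a-sorted library and 1.63 and 3.27 in the edn1-/- libraries. It stood at 4.33 TPM with jag1b+/+, 5.81 with jag1b-/-, 3.13 with Gal4 alone, 5.44 with Edn1 and 0.455 with NICD. The highest values of epha4b were thus in hand2-sorted library 2 and the jag1b-/- library, and the NICD library lay near the lowest, which was fli1a-only library 2. The row epha4l (ENSDARG00000010767), named as EphA4-like, and epha3 (ENSDARG00000039373), an EphA receptor, were low genes. The gene epha4l stood at 1.83, 3.52 and 3.60 TPM in all-arch libraries, while fli1a-only libraries held 0.338, 0.291 and 0.834 TPM and sox10-only libraries 0.643, 0.517 and 1.11 TPM. It stood at 1.02 and 2.86 TPM in the hand2-sorted libraries, 1.54 in the dlx5a-sorted library and 2.46 and 4.21 in the edn1-/- libraries. Like epha4a, it was higher in every all-arch library than in any fli1a-only or sox10-only library. The gene epha3 stood at 2.36, 2.14 and 2.90 TPM in all-arch libraries, while fli1a-only libraries held 1.32, 0.388 and 1.16 TPM and sox10-only libraries 0.607, 0.298 and 0.630 TPM. It stood at 0.553 and 0.873 TPM in the hand2-sorted libraries, 0.707 in the dlx5a-sorted library and 2.11 and 1.5 in the edn1-/- libraries. In the libraries without replicates epha4l ranged from 2.39 to 3.85 TPM and epha3 from 0.839 to 1.29 TPM. The 3 all-arch libraries held higher values of epha3 than any other of the 19 libraries. The ratio of epha4a to epha4b ran from 1.01 in the Edn1 library to 9.59 in the NICD library, and from 3.19 to 3.50 in all-arch libraries.

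Among the EphB receptors, ephb4b (ENSDARG00000027112) and ephb4a (ENSDARG00000100725) are the paralogues of EphB4, the receptor for ephrin-B2 in veins. The gene ephb4b stood at 15.8, 20.5 and 23.2 TPM in all-arch libraries, while fli1a-only libraries held 11.0, 4.99 and 14.8 TPM and sox10-only libraries 7.53, 11.6 and 12.8 TPM. It stood at 15.1 and 17.6 TPM in the hand2-sorted libraries, 6.94 in the dlx5a-sorted library and 21.5 and 14.7 in the edn1-/- libraries. Without replicates it stood at 15.6 TPM with jag1b+/+, 19.5 with jag1b-/-, 13.2 with Gal4 alone, 19.2 with Edn1 and 10.3 with NICD. The all-arch libraries lay above both other WT sorts, and the dlx5a-sorted library under all 3 of them. The gene ephb4a stood at 6.84, 8.23 and 11.6 TPM in all-arch libraries, while fli1a-only libraries held 5.65, 3.46 and 9.81 TPM and sox10-only libraries 4.52, 5.92 and 9.83 TPM. It stood at 4.50 and 8.13 TPM in the hand2-sorted libraries, 2.50 in the dlx5a-sorted library and 6.05 and 8.74 in the edn1-/- libraries. Without replicates it stood at 7.70 TPM with jag1b+/+, 10.2 with jag1b-/-, 5.67 with Gal4 alone, 8.29 with Edn1 and 8.55 with NICD. The 3 WT sorts overlapped for ephb4a, and the dlx5a-sorted library held the lowest value of the 19. EphB3 is another receptor of ephrin-B ligands, and its gene ephb3a (ENSDARG00000031548) stood at 11.2, 7.24 and 14.5 TPM in all-arch libraries, while fli1a-only libraries held 10.1, 2.28 and 9.99 TPM and sox10-only libraries 3.60, 4.41 and 6.51 TPM. It stood at 3.37 and 2.69 TPM in the hand2-sorted libraries, 2.03 in the dlx5a-sorted library and 14.5 and 10.5 in the edn1-/- libraries. Without replicates it stood at 9.40 TPM with jag1b+/+, 9.96 with jag1b-/-, 7.83 with Gal4 alone, 7.46 with Edn1 and 7.78 with NICD. The hand2-sorted and dlx5a-sorted libraries all lay under the lowest all-arch library for this gene.

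**Figure D2:**
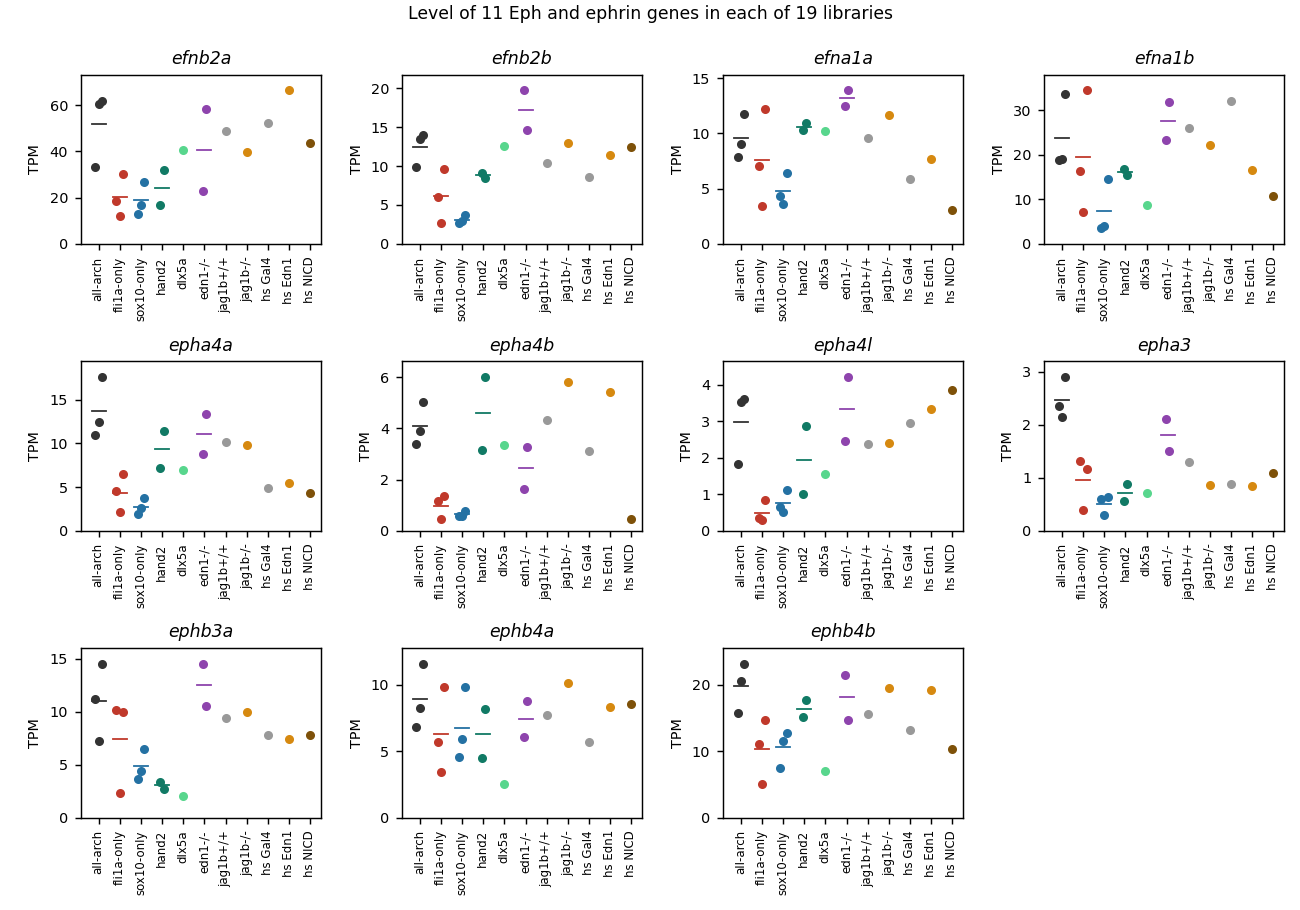
TPM (y axis) of the 11 members described in full in each of 19 libraries, grouped by sort or genotype on the x axis. Each point is 1 library and each short line is the mean of a group with at least 2 libraries. The plot of epha4a and epha4b shows all-arch libraries above fli1a-only and sox10-only libraries, and the plot of ephb3a shows hand2-sorted and dlx5a-sorted libraries under the all-arch ones.

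The other 15 members were low. The highest single value among them was 9.48 TPM, for efna5a in the NICD library. The ephrin-A5 gene efna5a ranged from 0.756 TPM upward, with 2.32, 5.90 and 6.53 in all-arch libraries. The ephrin-B1 gene efnb1, whose human counterpart is mutated in craniofrontonasal syndrome, ranged from 0.340 to 5.52 TPM, epha7 from 0.679 to 5.39, epha2a from 0.833 to 5.43, efnb3b from 0.356 to 3.95 and efnb3a from 0.537 to 2.61. The genes efna2a, efna3b and ephb2b lay around 1 TPM, with highest values of 1.79, 1.40 and 2.21 TPM. The 6 members under 1 TPM in every library reached at most 0.505 TPM, for ephb6 in fli1a-only library 1. EphB6 is known in mammals as a receptor without kinase activity.

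In the comparison of all-arch cells with the mixed, vessel- and blood-rich fli1a-only population, 3 of the 17 members tested, the EphA4-type receptors epha4a, epha4b and epha4l, were higher in all-arch cells and 0 were lower. A gene was called when its adjusted p lay under 0.05 in limma, on log2(TPM + 1), adjusted by Benjamini-Hochberg over the 14270 genes with a mean of at least 1 TPM. Over all tested genes 4.16% were called higher and 2.89% lower. The gene epha4a stood at 13.7 ± 3.52 TPM against 4.36 ± 2.16 (SD, n = 3 each), a log2 difference of 1.51 (SE 0.39, limma adjusted p = 0.0383). The gene epha4b differed by 1.38 (SE 0.29, limma adjusted p = 0.0147) and epha4l by 1.41 (SE 0.30, limma adjusted p = 0.0172). The median gene itself lay at 0.68 on this scale, so relative to it these 3 differences were 0.84, 0.71 and 0.73.

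The libraries of both groups did not overlap for 10 of the 17 tested members, all higher in all-arch cells, against 38.5% of all tested genes. In the lower direction 0 did, against 5.75%. The median difference of the 17 members was 0.85, beside 0.68 for all genes, and 10 of 17 had an unadjusted p under 0.05 in limma. Counts by unadjusted p, here and below, have no share of all genes beside them and are not read as results about the family. Of the ligands, efnb2a differed by 1.34 (limma adjusted p = 0.0623), efnb2b by 1.03 (limma adjusted p = 0.0828) and efna5a by 1.28 (limma adjusted p = 0.0597), none past the test. The receptor epha2a was the 1 tested member with a negative difference, at -0.53 (limma adjusted p = 0.304). Both epha4b and epha4l, as well as epha3, reached a mean of 1 TPM among the 3 WT sorts in all-arch cells alone, so they entered the test through the group in which they were high and had to differ, and their calls are a description. The 3 are also counted among the 10 members whose libraries did not overlap. With no filter on low values epha4b and epha4l were called (limma adjusted p = 0.0276 and 0.0363), and epha4a was not (limma adjusted p = 0.0805). That setting gave 21 positive and 5 negative differences over all 26 members, with a median of 0.49 beside 0.14 for all genes.

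The libraries numbered alike in the 3 WT sorts deviated together, and with the replicate number as a block 11 of 17 members were higher and 0 lower, where 44.5% of all tested genes were higher and 6.16% lower. The 8 added were efna5a, efnb1, efnb2a, efnb2b, efnb3b, epha3, epha7 and ephb4b, with blocked adjusted p from limma between 0.00144 and 0.0278. The 11 include epha3, epha4b and epha4l, which entered the test through the all-arch libraries. Without the globin-rich fli1a-only library 2 the calls were epha4b and epha4l, and epha4a stood at 1.17 with a limma adjusted p of 0.0637. With the globin genes left out and all other genes rescaled the same 2 were called, and epha4a stood at 0.90 with a limma adjusted p of 0.0986. The count fell to 0 without all-arch library 2 or 3 and to 1 without fli1a-only library 1, where 0.796%, 0.652% and 1.9% of all tested genes were called higher. It rose to 9 without fli1a-only library 3, where 30.4% of all tested genes were called higher. With median-of-ratios rescaling, which brings the median gene to 0.06, the 3 EphA4-type genes were called higher and epha2a lower, and 6 of 17 members had negative differences. The endothelium markers (8 genes) summed to 17.1 to 27.7 TPM in all-arch and 296 to 1375 in fli1a-only libraries, with 7 of 8 called lower in all-arch cells, and the red cell markers to 366 to 6760.2 and 112952 to 319969 TPM. Their part in the member differences was not tested.

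Against sox10-only cells, the members called higher in all-arch cells were the EphA4-type receptors, epha3 and both ephrin-B2 ligands. Of 17 tested members 6 were higher in all-arch cells (efnb2a, efnb2b, epha3, epha4a, epha4b and epha4l) and 0 were lower, while 3.40% of all tested genes were called higher and 10% lower. The ligand efnb2a stood at 51.8 ± 16.2 TPM against 19.0 ± 7.17 (SD, n = 3 each), a log2 difference of 1.41 (SE 0.42, limma adjusted p = 0.0441). With 1 library of the fit left out in turn, efnb2a stayed past the threshold in 4 of 9 fits. The ligand efnb2b stood at 12.5 ± 2.21 against 3.08 ± 0.548 TPM, a difference of 1.72 (SE 0.40, limma adjusted p = 0.00960). The receptor epha4a differed by 1.98 (SE 0.39, limma adjusted p = 0.00324), with 13.7 ± 3.52 against 2.73 ± 0.905 TPM. The low receptors epha4b, epha4l and epha3 differed by 1.63, 1.16 and 1.20, with limma adjusted p of 0.00172, 0.0203 and 0.0130. These 3 passed the filter through the all-arch libraries alone, so their calls are a description. With no filter on low values their limma adjusted p were 0.00324, 0.0221 and 0.0129.

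The median difference of the 17 members was 1.05, beside -0.04 for all genes, and 16 of 17 differences were positive. The libraries did not overlap for 13 of the 17 tested members, all higher in all-arch cells, against 10.8% of all tested genes on that side and 20.6% on the lower, and 10 of 17 had an unadjusted p under 0.05. The exception in sign was epha7, at -0.06 (limma adjusted p = 0.968), which turned positive with median-of-ratios or quantile rescaling. The largest difference that missed the threshold was that of efna1b, at 1.74 (SE 0.59, limma adjusted p = 0.0802). Of the 9 untested members, efna3a, ephb1 and ephb2a, all under 1 TPM, were lower in every all-arch library than in any sox10-only library. The counts and median over 17 members include epha3, epha4b and epha4l, which entered the test through the all-arch libraries. With no filter on low values, 19 of 26 differences were positive and 7 negative. The members' median was then 0.70, beside -0.03 for all genes.

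With the replicate block 12 of 17 members were higher and 0 lower, where 5.99% of all tested genes were higher and 14.6% lower. The 6 added were efna1a, efna1b, efna5a, efnb3a, efnb3b and ephb3a, with blocked adjusted p from limma between 0.000204 and 0.0476. The 12 include epha3, epha4b and epha4l, which entered the test through the all-arch libraries. All-arch cells were also set against the 1 sox10-only library labelled 36 hpf, the stage of the arch cells. With 1 library on that side only differences are given, at 0.86 for efnb2a, 1.51 for efnb2b and epha4b, and 1.61 for epha4a. There 14 of 18 members had positive differences, and epha2a, epha7, ephb2b and ephb4a had negative ones. The members' median fell to 0.62, beside -0.22 for all genes. Family sums in the sox10-only libraries were 51.9 TPM at the labelled 20 hpf, 64.8 at 28 hpf and 105 at 36 hpf, and stage and replicate number cannot be told apart there. Without all-arch library 3 or sox10-only library 2 the count of members called higher fell from 6 to 3. This fall is not set against all genes here. Markers of neurons (6 of 6), glia and crest progenitors (4 of 4 tested), pigment cells (6 of 6) and the ear (3 of 4 tested) were called lower in all-arch cells. Their summed levels were 15.7 to 86.7 against 827 to 936 TPM for neurons and 15.1 to 824 against 10119 to 30613 for pigment. For the ear they were 16.4 to 21.1 against 83.5 to 432 TPM. Of the epithelium and endoderm markers 4 of 6 were also called lower, at sums of 87.4 to 1014 against 2040 to 4897 TPM. The part of all these markers in the member differences was not tested.

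Between fli1a-only and sox10-only cells 0 of 17 members passed the test in either direction, with 1 unadjusted p under 0.05 in limma, while 4.06% of all tested genes were called higher and 24.4% lower in fli1a-only cells. The median difference of the members was 0.34, beside -0.78 for all genes. The ligand efna1b, at 19.4 ± 13.9 TPM against 7.47 ± 6.25 (SD, n = 3 each), had the largest difference of the 17, 1.26 (SE 0.59, limma adjusted p = 0.107). The receptor epha7 was lower in every fli1a-only library than in any sox10-only library, the 1 tested member whose libraries did not overlap, against 42.9% of all tested genes on that side and 5.0% on the other. It differed by -0.87 (limma adjusted p = 0.0612). With the replicate block efna1b and epha2a were called higher (limma adjusted p = 0.00402 and 0.0401), where 6.31% of all tested genes were, and epha7 lower (adjusted p = 0.0106), where 53.6% were. This comparison turned on the scaling: 11 members were called higher with median-of-ratios rescaling, which brings the median gene to 0.02, 10 with quantile normalization and 6 with the globin genes left out. Of all tested genes 9.58%, 9.03% and 6.61% were called higher under these settings. The 6 were efna1a, efna1b, efnb2b, efnb3a, epha2a and epha4a. Without fli1a-only library 2 the higher calls were efnb2b and efnb3a, without sox10-only library 3 efna1b was called higher, and without fli1a-only library 3 epha7 was called lower.

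**Figure D3:**
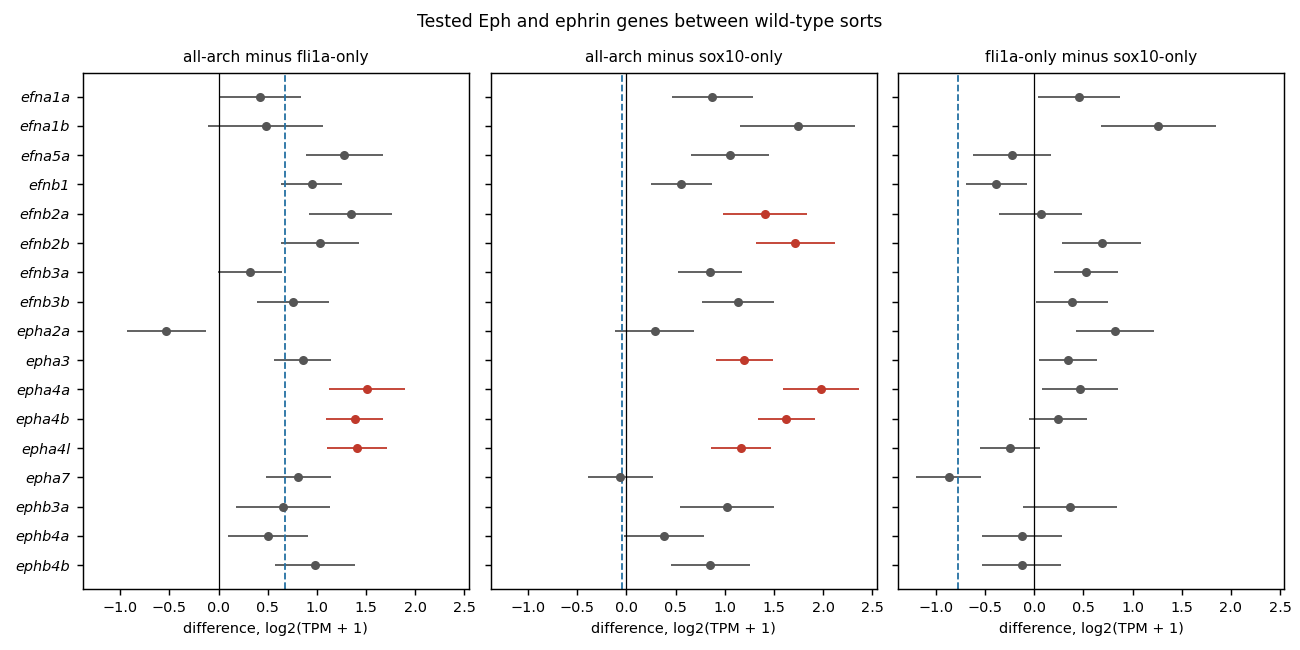
Log2 differences on log2(TPM + 1) (x axis) of the 17 tested members (y axis) between the 3 WT sorts, with 1 panel a comparison. Points are limma estimates, bars are ± 1 SE, red marks an adjusted p under 0.05 and the dashed line is the median of all tested genes. Most members lie right of the dashed line in the comparison of all-arch with sox10-only cells, where that line is at -0.04.

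Within the arches, 0 of 19 tested members passed the test between hand2-sorted and all-arch cells, at 0.295% of all 13206 tested genes called higher and 1.26% lower, and with 4 of 19 members at an unadjusted p under 0.05 in limma. The gene hand2 marks the ventral, lower-jaw side of the arches, and it stood at 34428 and 25346 TPM in the sorted libraries against 729, 639 and 856 in the all-arch ones. The receptor ephb3a stood at 3.37 and 2.69 TPM against 11.2, 7.24 and 14.5, the largest difference at -1.53 (SE 0.34, limma adjusted p = 0.0990). The receptor epha3 stood at 0.553 and 0.873 TPM against 2.36, 2.14 and 2.90, with a difference of -1.02 (limma adjusted p = 0.151), and efnb2a differed by -1.07 (limma adjusted p = 0.525). In the other direction efnb1 stood at 4.49 and 5.52 TPM against 2.19, 2.64 and 2.91 (0.75, limma adjusted p = 0.277), and epha7 at 5.39 and 5.17 against 2.61, 3.00 and 3.43 (0.65, limma adjusted p = 0.465).

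The libraries did not overlap for 3 of 19 members on the higher side (efna2a, efnb1 and epha7), against 11.7% of all tested genes. On the lower side they did not overlap for 6 (efna1b, efnb2a, efnb2b, efnb3a, epha3 and ephb3a), against 15.7%. The ligand efna2a had means of 1.69 TPM in hand2-sorted, 0.959 in all-arch and 0.931 in edn1-/- cells, and 1.12 TPM in the dlx5a-sorted library. It entered the test through the hand2-sorted libraries, in which it was high, so its place among the 3 is a description. The members' median difference was -0.44, beside -0.12 for all genes. The epithelium and endoderm markers (6 genes) summed to 1700.3 to 1789.7 TPM in the hand2-sorted and 87.4 to 1014 in all-arch libraries. Of this sum krt4 held 1672 and 1571 TPM in hand2-sorted libraries, and cldnb and epcam also lay above all all-arch libraries. The ear markers summed to 53.2 to 55.4 and 16.4 to 21.1 TPM, and did not move as a whole. The gene oc90 stood at 46.5 and 43.3 TPM against 13.95, 16.4 and 19.3, and hmx2 and hmx3a were also higher. By contrast, stm stood at 0.579 and 0.589 TPM against 0.640, 1.03 and 0.244. The gene otomp stood at 0.173 and 0.125 TPM against 0.394, 1.01 and 0.172. The part of these markers in the member values was not tested.

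The dlx5a-sorted library, a single library that was assumed to vary like the other groups, also gave 0 of 19 calls, at 0.0757% of all tested genes called higher and 0.318% lower, with 6 of 19 members at an unadjusted p under 0.05 in limma. The gene dlx5a is a homeobox gene of the ventral and intermediate arch, and it stood at 1530.3 TPM in this library against 555, 893 and 562. The EphB receptors were low in this library: ephb3a stood at 2.03 TPM, ephb4a at 2.50 and ephb4b at 6.94, all under every all-arch library. Their differences were -1.94, -1.47 and -1.37, with limma adjusted p of 0.128, 0.197 and 0.166. The ephrin-B2 ligands did not share these low values, with efnb2a at 40.6 TPM (difference -0.29, SE 0.64) and efnb2b at 12.6 (difference 0.02, SE 0.34). The ratio of efnb2a to ephb4a was 16.2 in this library and 4.84, 7.33 and 5.35 in the all-arch libraries. In all, 14 of 19 tested members lay under all 3 all-arch libraries, against 51.1% of all tested genes, and 1 (efna2a) lay above, against 15.9%. The members' median difference was -0.62, beside -0.38 for all genes, and 16 of 19 differences were negative. With median-of-ratios or quantile rescaling 12 of 19 were negative, ephb3a, ephb4a and ephb4b among them. The ear markers summed to 138 TPM and the epithelium and endoderm markers to 1500.2 in this library, both above all all-arch libraries, and their part in the member values was not tested.

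In edn1-/- arch cells 0 of 19 members passed the test, none had an unadjusted p under 0.05, and in limma 0% of all tested genes were called higher and 0.00757% (1 gene) lower. Endothelin 1, encoded by edn1, is the signal for ventral identity in the arches. The label could not be checked on edn1 itself, which was under 1 TPM in all-arch cells. Of the ventral genes named above, dlx5a stood at 209 and 249 TPM in edn1-/- libraries, against 555, 893 and 562 in all-arch ones. The gene hand2 stood at 461 and 682 TPM against 729, 639 and 856, which overlap. Every member had the same limma adjusted p of 0.999865. The receptor epha4b stood at 1.63 and 3.27 TPM against 3.39, 3.90 and 5.03, under all 3 all-arch libraries, with the largest absolute difference at -0.60 (SE 0.36). The ligands efna1a (difference 0.44, SE 0.25) and efnb2b (difference 0.43, SE 0.27) lay above all all-arch libraries, the 2 of 19 tested members that did, against 9.70% of all tested genes. On the lower side epha3, epha4b and efnb1 did not overlap, 3 of 19, against 5.18%. The 2 mutant libraries stood far apart for efnb2a, at 23.0 and 58.3 TPM, and for efna5a, at 2.74 and 8.46 TPM. Such a gap was not particular to the mutant. All-arch libraries 1 and 2 held 33.1 and 60.4 TPM of efnb2a, and efna5a stood at 2.32, 5.90 and 6.53 TPM in all-arch libraries. Hand2-sorted libraries 1 and 2 held 16.7 and 32.1 TPM of efnb2a and 1.19 and 3.23 TPM of efna5a. For efnb2a, fli1a-only libraries 1 and 2 went the other way, at 18.7 and 12.1 TPM. What part the replicate number has in these gaps was not tested. The hand2-sorted, dlx5a-sorted and edn1-/- groups were all compared with the same 3 all-arch libraries, so their differences are not independent of one another. For ephb3a the 3 differences were -1.53, -1.94 and 0.21, and for epha3 -1.02, -1.02 and -0.31, in this order.

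**Figure D4:**
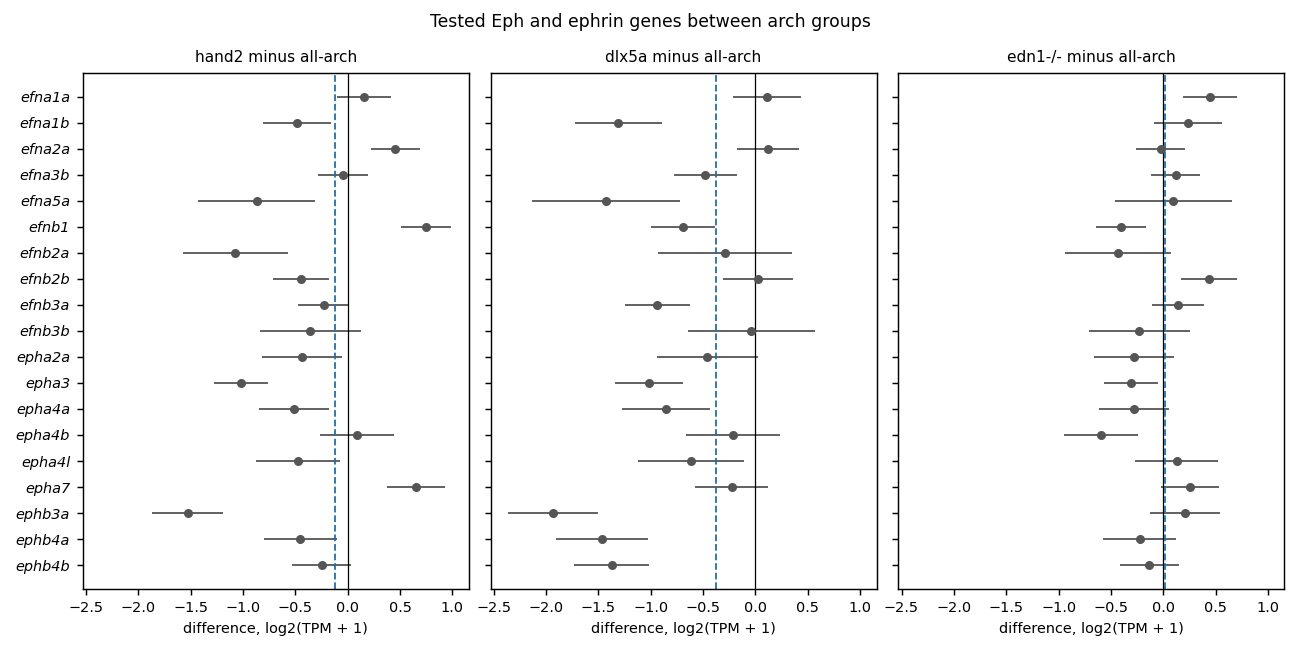
Log2 differences on log2(TPM + 1) (x axis) of the 19 tested members (y axis) against the 3 all-arch libraries, with 1 panel for each of the hand2-sorted, dlx5a-sorted and edn1-/- groups. Points are limma estimates, bars are ± 1 SE and the dashed line is the median of all tested genes. The receptor ephb3a lies at -1.53 and -1.94 in the first panels and at 0.21 in edn1-/- cells, and 0 members passed the test in any panel.

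The jag1b and heat-shock comparisons had 1 library a group, so no test was made. A member was counted as changed in level when it differed by at least 1 on log2(TPM + 1) with at least 10 TPM in the higher library. Jagged 1b, encoded by jag1b, is a Notch ligand of the dorsal arch, and jag1b itself stood at 5.85 TPM in the jag1b-/- and 31.6 in the jag1b+/+ library. Of the 7 members that reached 10 TPM, 0 passed this fold, which 0.192% of all 5718 genes at that level did upward and 0.700% downward. The largest difference among the 7 was that of ephb4a, at 10.2 TPM in jag1b-/- against 7.70 in jag1b+/+ (log2 0.36). The median of the 7 was 0.26, beside -0.02 for all genes.

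With heat-shock Edn1, edn1 stood at 20.9 TPM against 1.37 with Gal4 alone. Of the 4 members that reached 10 TPM, 0 passed the fold, which 2.42% of all 5960 genes did upward and 1.29% downward. The ligand efna1b came closest, at 16.5 TPM against 32.2 (log2 -0.92). Under the minimum of 10 TPM, efnb1 stood at 5.17 against 2.03 TPM (log2 1.03). With heat-shock NICD, notch1a stood at 40.9 TPM against 4.30 with Gal4 alone. Of the 4 members that reached 10 TPM, efna1b passed the fold, at 10.7 TPM against 32.2 (log2 -1.50), where 5.04% of all 6037 genes passed upward and 2.09% downward. The receptor epha4b, under the minimum, stood at 0.455 against 3.13 TPM (log2 -1.51), while epha4a stood at 4.37 against 4.94 (log2 -0.15). The median of the 4 members was 0.36 with Edn1 and -0.29 with NICD, beside 0.22 and 0.15 for all genes. Both comparisons share the Gal4 library, and none of these differences has a replicate check. The efna1b level of the Gal4 library lay near the highest of the all-arch values of 18.9, 19.0 and 33.7 TPM. Its ratio of efna1b to efna1a was 5.47, the highest of the 19 libraries, with 2.10 to 2.86 in all-arch libraries. What part a high control has in the efna1b differences was not tested. The arch crest markers summed to 1804 TPM with NICD against 3222 with Gal4 alone. The glia and crest progenitor markers summed to 1175 against 225 and the artery markers (4 genes) to 244 against 65.7. The arch crest and artery lists did not move as a whole. Of the arch crest markers, hand2 stood at 104 against 769 TPM and barx1 at 80.4 against 400. By contrast, prrx1b stood at 216 against 219 TPM and ednraa at 66.6 against 43.5. Of the artery markers, hey2 stood at 163 against 25.5 TPM and dlc at 68.3 against 20.1. The others were dll4 at 5.17 against 12.2 TPM and cldn5b at 7.77 against 7.84. The part of these markers in the member values was not tested.

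**Figure D5:**
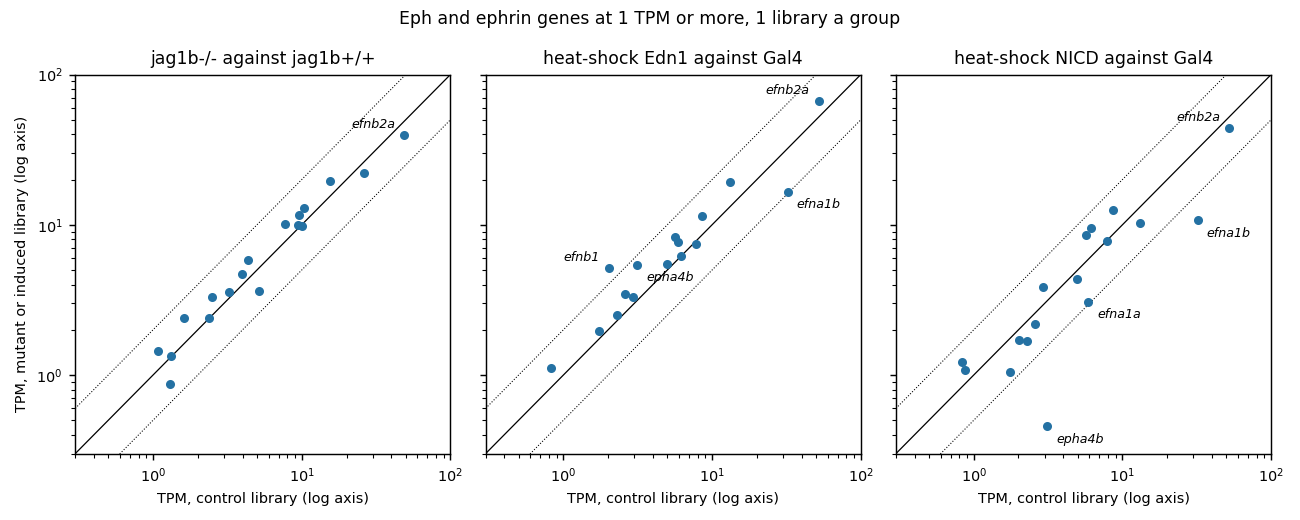
TPM in the mutant or induced library (y axis, log scale) against TPM in its control library (x axis, log scale), with 1 point for each member at 1 TPM or more in either library and above 0 in both. The solid line marks equal TPM and the dotted lines a 2-fold ratio of TPM. With NICD, efna1b and epha4b lie under the lower dotted line.

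The intracellular side of the pathway was read from a list of 45 genes of adaptors, kinases, other intracellular partners and the ADAM10 sheddase, of which 43 were found and 32 tested among the WT sorts. Against fli1a-only cells 2 of 32 were higher in all-arch cells (abl1 and tiam2a) and 0 lower, where 4.16% of all tested genes were higher and 2.89% lower. The kinase gene abl1, at 19.6, 48.1 and 38.4 TPM against 8.05, 8.32 and 15.0, differed by 1.63 (limma adjusted p = 0.0477) and tiam2a by 1.35 (limma adjusted p = 0.0275). The list's median was 0.68, the same as that of all genes. Against sox10-only cells 0 of 32 were higher and 4 lower, where 3.40% and 10% of all tested genes were, with a median of -0.06. Between fli1a-only and sox10-only cells 0 were higher and 6 lower in fli1a-only cells, where 4.06% and 24.4% of all tested genes were, with a median of -0.84 beside -0.78 for all genes. These counts lie near the shares over all genes and say nothing particular of the list. The lowest adjusted p belonged to rgs3a, whose product is known in mouse to bind the tail of ephrin-B, at 2.02, 7.26 and 3.34 TPM in all-arch and 48.2, 68.2 and 38.2 in sox10-only libraries (log2 -3.42, SE 0.49, limma adjusted p = 0.000346). The Src-family kinase genes src and fyna were lower in all-arch than in sox10-only cells, with log2 differences of -1.63 and -1.93 (limma adjusted p = 0.00671 and 0.00278). The sheddase gene adam10a, whose product cleaves ephrins from the cell surface, was lower with a log2 difference of -1.34 (limma adjusted p = 0.0195). The other ADAM10 gene of the list, adam10b, overlapped, at 5.73, 30.5 and 39.5 TPM in all-arch and 3.16, 30.9 and 35.6 in sox10-only libraries. The gene chn1, whose product is known in mouse to act under EphA4, and the kinase gene pak1 were lower in fli1a-only than sox10-only cells. Their log2 differences were -1.27 and -1.05 (limma adjusted p = 0.0160 and 0.0173), and -0.49 and -0.28 relative to the median gene. Among the arch groups 0 of 30 tested genes of the list passed in any of the 3 comparisons, with 2, 7 and 1 at an unadjusted p under 0.05 in limma for hand2-sorted, dlx5a-sorted and edn1-/- cells.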

How the data were processed

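RNA of sorted cells was measured in 19 libraries of 11 groups, made per the labels' protocols with SMARTer cDNA and Kapa Hyper kits and sequenced as paired ends on HiSeq and NextSeq instruments, whose assignment to libraries was not used here. The submitters' processing notes name GRCz10, TopHat2 and Partek, with no versions or roles. The handling of reads shared by paralogues was not given in the sources used here. The deposited TPM values, computed by the authors for 31953 genes, summed to 93168.1 to 93168.3 per column rather than 1000000. All columns were therefore multiplied by 10.7333, which keeps ratios and sets what a pseudocount of 1 means. All columns matched a sample by name.

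Tests used limma 3.58.1 under R 4.3.3 on log2(TPM + 1) values (mean-variance trend, robust empirical Bayes, 2-sided, Benjamini-Hochberg over all genes tested, threshold 0.05), for genes with a mean of at least 1 TPM over the libraries of the fit. This scale understates changes of low genes. A first fit held the WT sorts other than hand2 and dlx5a (14270 genes, 6 residual degrees of freedom), a second the all-arch, hand2-sorted, dlx5a-sorted and edn1-/- libraries (13206 genes, 4 residual degrees of freedom). The code of the first fit was run on simulated data with independent libraries and planted changes, for all-arch against fli1a-only cells. That simulation held no pairing of libraries and no group difference in globin share. It therefore says nothing of error rates in these data. Same-numbered libraries of the first fit had deviations from their group means that correlated at 0.316 to 0.739, in each pair above 0.1, so the numbers were taken as pairing the libraries. This pairing comes from the data, as the labels do not state it. The main fits leave it out, and results with the replicate block are given as an alternative.

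Members with a group mean of at least 10 TPM or a call are described in every library, the others by range. From the pathway list the called genes are counted and the 6 with the smallest adjusted p named. The genes abl1 and tiam2a are named because only 2 were called in their comparison. The members and lists were chosen with earlier results of these data known. Member identifiers matched a gene name table for 25 of 26, and symbols the RefSeq table for 26 of 26. Alternatives were other pseudocounts (0.1 and 5), filters, scalings, fits without trend, and leaving out each library.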

Additional observations from a re-analysis of the deposited data

How the results depend on the processing

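Of the 9 calls of single members among the WT sorts, 0 changed sign under any alternative, and 134 of 164 repeats stayed past the threshold. The 9 include the calls of epha3, epha4b and epha4l, which entered the test through the all-arch libraries, so their repeats are a description. Settings in which a member was not tested are not among the 164. The calls differed in how often they held when 1 library was left out. Those of efnb2a against sox10-only cells and epha4a against fli1a-only cells held least, each in 4 of 9 such fits. The 9 include fits without a library of the third sort, which is outside the comparison. On the deposited scale, without rescaling, 1 member (efnb2a, of 3 tested) was called higher in all-arch cells against each of the other sorts. With a mean of at least 5 TPM 3 members were called against sox10-only cells, where 8 were tested. Median-of-ratios rescaling gave 13 against sox10-only cells, 1 lower (epha2a) against fli1a-only cells, 11 between fli1a-only and sox10-only cells and 1 with heat-shock Edn1. Quantile normalization gave 13 and 10 for the comparisons with sox10-only cells, and leaving out globin genes, chosen after seeing the data, 6 for fli1a-only against sox10-only. With no filter on low values ephb1 was the 1 member lower in fli1a-only than in sox10-only cells. With the sox10-only library of 36 hpf alone the members' median difference to all-arch cells fell from 1.05 to 0.62. For heat-shock Edn1, 1 member passed with a minimum of 1 TPM and 1 at 1.5-fold, and for NICD 2 passed with a minimum of 1 TPM. Shares of all tested genes under the rescalings are given above for fli1a-only against sox10-only cells alone. The other counts are therefore not read as results about the family. The cause of these moves was not tested.

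Leaving out 1 library gave 0 to 9 members higher in all-arch than in fli1a-only cells and 3 to 8 against sox10-only cells. Between fli1a-only and sox10-only cells it gave 0 to 2 higher and 0 to 1 lower, and 0 throughout in the arch groups. Against fli1a-only cells the share of all tested genes called moved as well, as given above. These ranges are therefore not read as results about the family. The replicate block gave 11 and 12 higher members in the all-arch comparisons and 2 higher and 1 lower between the other sorts. Of all tested genes 44.5% and 5.99% were then higher in the all-arch comparisons. Between the other sorts 6.31% were higher and 53.6% lower. Among the arch groups 2 libraries a group share a number, and their deviations correlated at 0.486 to 0.636. With 2 libraries a group a different number gives the opposite sign by construction, so whether these numbers pair the libraries was not settled. There the block called 1 member lower in hand2-sorted cells (ephb3a, -1.32, limma adjusted p = 0.0420) and changed no other call. The share of all tested genes called under that block is not given here, so this call is not read as a result about the family. All genes called higher and lower in all-arch against fli1a-only cells numbered 594 and 412, and 340 and 979 with median-of-ratios rescaling. TPM keeps no depth, so what depth limits cannot be given.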

Other observations

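A set of 5 rows with family names in another spelling was read beside the 26 members, after their values were seen. The row EPHA2 (2 of 2), whose identifier the gene name table gives as epha2b, an EphA2 receptor, stood at 26.3, 47.5 and 49.9 TPM in all-arch, 8.22, 6.47 and 17.1 in fli1a-only and 3.95, 7.23 and 14.5 in sox10-only libraries. All 3 all-arch libraries lay above the others, by 1.92 against fli1a-only (limma adjusted p = 0.0340) and 2.25 against sox10-only cells (limma adjusted p = 0.00578) on log2(TPM + 1). Its level in the hand2-sorted libraries was 39.1 and 68.2 TPM. The namesake epha2a, by contrast, stood at 1.25, 3.91 and 1.42 TPM in all-arch libraries. EPHB3 (2 of 2) stood at 12.8, 20.3 and 25.5 TPM in all-arch libraries and 3.16 in the dlx5a-sorted library, where ephb3a was also low, but at 16.9 and 17.8 in the hand2-sorted libraries, within the all-arch range. The rows EFNA2 (2 of 2) and EFNA5 stood at 5.14, 6.40 and 7.73 and 4.50, 5.21 and 4.94 TPM in all-arch libraries, none called in any comparison, and EFNA4 reached at most 1.09 TPM.

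The ephrin-B1 gene efnb1, picked after its values were seen, stood at 4.49 and 5.52 TPM in the hand2-sorted and 5.17 in the heat-shock Edn1 library, the 3 highest of 19 values. It stood at 1.63 and 1.75 TPM in the edn1-/- libraries, under the all-arch values of 2.19, 2.64 and 2.91. None of its differences in these comparisons passed a test or the minimum level.

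In the gene order of the RefSeq table (assembly GRCz12tu, used for order alone), efna4, efna3b and efna1b are neighbours with 0 protein-coding genes between them, efna3a and efna1a have 2 between them, and epha4a and epha4b have 6. The neighbours efna3b and efna1b differed in level, at 0.941, 1.16 and 1.35 and 18.9, 19.0 and 33.7 TPM in all-arch libraries.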
